A study of Mus musculus with 11 samples.

Results

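The genes described here encode the digestive enzymes that the pancreas secretes, the proteins of the zymogen granules that store them, and the machinery that fuses those granules with the cell surface. The list held 35 gene symbols chosen by function, and 30 of them were measured, out of 19938 genes with a probe set of their own on the array. A gene was taken as measured where the array's annotation gave a probe set that symbol alone. The symbols Amy2b, Amy2a5, Pnlip, Klk1 and Vamp2 had no such probe set and were not analysed here. The measured genes were 13 digestive enzymes and their cofactor colipase, 6 genes grouped as granule proteins and 11 exocytosis genes.

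RNA came from the pancreas of wild-type C57Bl6J mice, with 1 Affymetrix array per sample. Acute pancreatitis was induced in the 6 caerulein samples by 9 hourly injections into the abdomen, at a dose that the series record gives as 50 mg/kg, a unit not checked here. The 5 control samples came from mice given sodium chloride (NaCl). The series text counts 6 caerulein mice, as many as the caerulein samples, but 4 control mice. The number of control samples may therefore exceed the number of control mice. The sources used here give neither the age and sex of the mice nor the time of collection. They also do not state that the samples were separate animals, so the p-values reflect sample-to-sample spread, which may be technical. The values are log2 expression levels. Over all probe sets, arrays of the same group correlated at 0.981 to 0.991 and arrays of different groups at 0.938 to 0.955.

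Acinar cells make up most of the pancreas and pack their enzymes, many of them as inactive precursors, into zymogen granules below the apical membrane. A rise in cytosolic calcium after cholecystokinin binds its receptor makes the granules fuse with that membrane. Fusion needs small GTPases of the Rab family and their effectors, which bring granules to the membrane, and SNARE proteins, which pull granule and target membranes together. Caerulein is a peptide that acts like cholecystokinin, and in excess it overstimulates acinar cells and blocks apical release.

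In caerulein pancreas 14 of the 30 genes were lower, 5 were higher and 11 did not pass the threshold (limma, Benjamini-Hochberg adjusted p under 0.05 over all probe sets). Among all named genes 34.3% were lower and 20.3% higher by the same call. On the deposited scale the share of lower genes thus stood not far above the background and the share of higher genes near it. Every caerulein array lay below every NaCl array for 18 of the 30 genes and above for 5, against 20.6% and 16.7% of all named genes. The median difference, caerulein minus NaCl on the log2 scale, was -0.16 for the 30 genes and -0.13 for all named genes. The lower genes were 5 of 13 enzymes, 6 of 6 genes of the granule group and 3 of 11 exocytosis genes, and all 5 higher genes belonged to exocytosis.

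**Figure D1:**
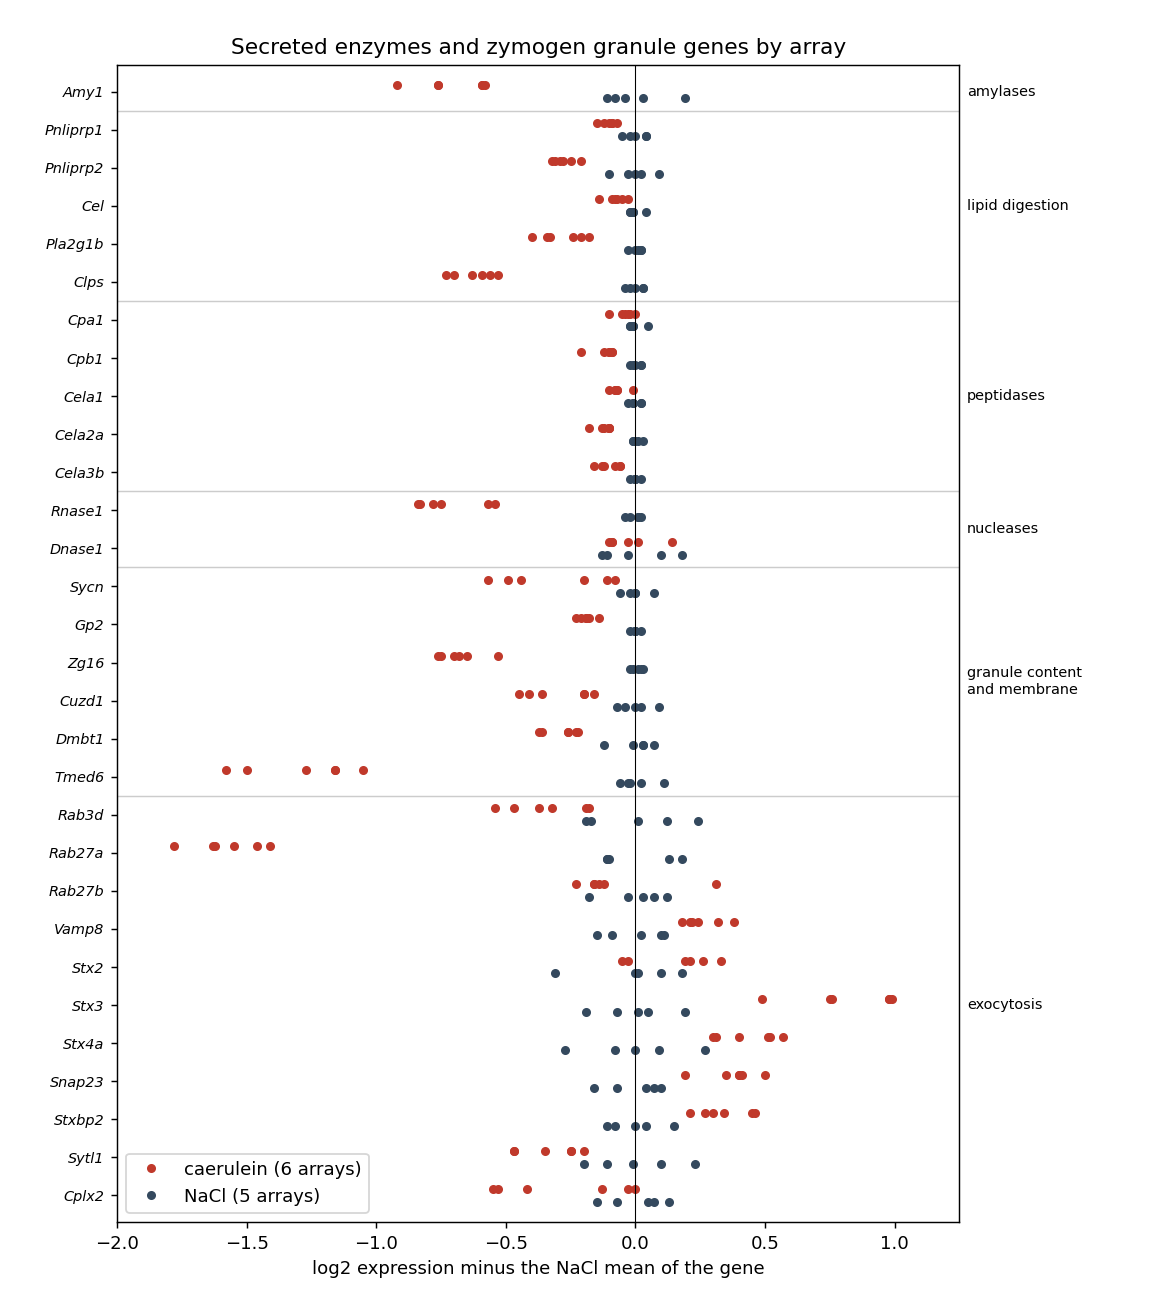
Log2 expression of each of the 30 measured genes on each array, minus that gene's NaCl mean (horizontal axis), with caerulein arrays in red above NaCl arrays in dark blue and the functional groups named at the right. Tmed6 and Rab27a lie furthest to the left, Stx3 furthest to the right, and the peptidases stay close to 0.

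The balance of lower and higher calls depended on how the arrays were put on a common scale. As deposited it was 14 lower and 5 higher, against 27.8% and 16.4% of all probe sets. With equal 75th percentiles it was 21 and 5, against 38.3% and 14.9%. When quantile normalisation was repeated it was 13 and 3, against 20.1% and 15.6%. With cyclic loess it was 13 and 4, against 15.4% and 17.8%, so there the share of lower genes stood further above the background. With each array shifted to an equal mean of a list of commonly used reference genes, 29 were lower and 0 higher. There 84.7% of all probe sets were lower and 5.36% higher. In that list 8 of 14 measured genes were themselves higher in caerulein as deposited, and it moved the caerulein arrays by -0.67. In a bulk sample, fewer cells of a type and less RNA per cell cannot be told apart.

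As deposited, exocytosis genes were the group in which members moved in opposite directions. Rab27a had the largest fall of the 30 genes in array values and Stx3 the largest rise. Genes near the top of the scale may be compressed in that ranking. Sytl1 was lower and Stx4a higher. With equal means of the reference gene list no exocytosis gene passed as higher, and Stx4a turned negative. Transcription factors of the basic helix-loop-helix class bind short sequences called E-boxes, and Bhlha15 and Ptf1a, members of that class that maintain acinar cells, were both measured. Bhlha15 averaged 7.65 ± 0.12 in caerulein and 9.65 ± 0.29 in NaCl (SD, n = 6 and 5, limma adjusted p = 3.85e-08), and Ptf1a averaged 7.89 ± 0.25 in caerulein and 7.33 ± 0.29 in NaCl (SD, n = 6 and 5, limma adjusted p = 0.00823). The Ptf1a groups overlapped, and its difference of 0.55 became -0.11 with equal means of the reference gene list. The E-boxes CATATG and CAGCTG, which read the same on both strands, were searched in RefSeq windows from 250 bases before to 50 bases after each annotated start (GRCm38.p6). The 4 windows printed are those of the 3 exocytosis genes past the threshold that held a match, and that of Stx3 as the largest rise without one. The windows of Rab3d, Snap23, Stxbp2 and Vamp8, also past the threshold, held no match and are not printed. Sequences run from 5′ to 3′ on the gene's own strand with E-boxes in capitals. They cover chr9:73063898-73064197 on the plus strand for Rab27a (the downstream of its annotated starts), chr4:133263038-133263337 on the minus strand for Sytl1, chr7:127841558-127841857 on the plus strand for Stx4a and chr19:11819354-11819653 on the minus strand for Stx3.
Rab27a: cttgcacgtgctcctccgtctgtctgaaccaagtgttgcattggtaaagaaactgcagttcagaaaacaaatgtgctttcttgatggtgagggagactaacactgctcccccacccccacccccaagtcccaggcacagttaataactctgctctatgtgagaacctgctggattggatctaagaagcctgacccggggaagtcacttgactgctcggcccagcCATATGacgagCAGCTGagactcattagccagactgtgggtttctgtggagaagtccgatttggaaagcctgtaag
Sytl1: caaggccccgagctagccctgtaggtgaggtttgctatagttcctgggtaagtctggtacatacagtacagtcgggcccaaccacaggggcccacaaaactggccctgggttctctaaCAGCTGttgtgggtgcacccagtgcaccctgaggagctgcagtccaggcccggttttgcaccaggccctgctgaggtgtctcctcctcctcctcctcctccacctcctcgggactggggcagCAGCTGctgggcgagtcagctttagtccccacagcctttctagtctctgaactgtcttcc
Stx4a: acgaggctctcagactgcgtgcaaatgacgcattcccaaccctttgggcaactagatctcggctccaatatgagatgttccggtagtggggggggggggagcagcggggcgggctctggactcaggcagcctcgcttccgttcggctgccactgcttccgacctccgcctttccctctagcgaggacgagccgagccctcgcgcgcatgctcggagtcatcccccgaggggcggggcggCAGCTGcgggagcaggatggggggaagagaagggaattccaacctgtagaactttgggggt
Stx3: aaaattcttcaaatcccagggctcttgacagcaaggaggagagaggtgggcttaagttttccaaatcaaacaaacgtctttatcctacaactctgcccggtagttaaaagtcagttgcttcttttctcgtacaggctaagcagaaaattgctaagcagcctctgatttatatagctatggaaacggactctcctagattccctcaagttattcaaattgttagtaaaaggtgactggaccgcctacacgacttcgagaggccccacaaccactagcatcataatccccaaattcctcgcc

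Counting back from the start, with the base before it as -1, the Rab27a window held CATATG from -26 and CAGCTG from -15. The window of its upstream start held neither. Sytl1 held CAGCTG from -132 and from -10, Stx4a held it from -11, and the Stx3 window had no match. Windows were found for 30 of the 35 listed genes, 34 windows in all. CATATG was in 1 of the 34, against 3.91% of all 32851 windows, and CAGCTG in 8 of 34, against 16.3%. The genes with CAGCTG did not share a direction. Beside Rab27a, Sytl1 and Stx4a they were Cuzd1, which was lower, Cpa1, Cela1 and Cplx2, which did not pass, and the unmeasured Amy2a5. A match describes letters in a window and is no measure of binding.

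Rab27a, a GTPase that tethers secretory vesicles at the plasma membrane, was 2.98-fold lower in caerulein pancreas. Its caerulein values ran from 5.91 to 6.28 with a median of 6.11, and its NaCl values were 7.59, 7.82, 7.58, 7.87 and 7.58. The groups were separated by more than their own ranges, with a difference of -1.57 (SE 0.09, limma adjusted p = 1.61e-08). It kept its sign and its call under every alternative that was run, with values from -2.24 to -1.53. Its relative Rab27b, which sits on zymogen granules in mouse acinar cells, ran from 6.36 to 6.90 with a median of 6.44 in caerulein and was 6.71, 6.56, 6.66, 6.62 and 6.41 in NaCl. These groups overlapped, and the difference of -0.09 (95% interval -0.30 to 0.13, limma adjusted p = 0.499) did not pass.

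A log ratio between related genes within an array does not move when that whole array is shifted. The log ratio of Rab27a over Rab27b averaged -0.39 ± 0.18 in caerulein (SD, n = 6) and 1.10 ± 0.18 in NaCl (SD, n = 5). The difference of -1.49 had an exact two-sided permutation p of 0.00433, the smallest that 6 against 5 arrays allow, and an adjusted p of 0.0101 over the 7 pairs of related genes that could be tested. Rab27a and Rab27b thus changed unequally on the same arrays. Rab3d, the other granule GTPase measured, was lower by itself but its log ratio over Rab27b missed the threshold as deposited (difference -0.26, exact permutation p = 0.0433, adjusted p = 0.0505). It passed once quantile normalisation was repeated (-0.51, exact permutation adjusted p = 0.0101) and with cyclic loess (-0.45, exact permutation adjusted p = 0.00758).

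Rab3d ran from 8.51 to 8.87 with a median of 8.70 in caerulein, against 9.29, 8.86, 8.88, 9.17 and 9.06 in NaCl, and the highest caerulein arrays reached into the NaCl range (difference -0.35, SE 0.10, limma adjusted p = 0.0118). Sytl1, an effector that links Rab27 proteins to the membrane, ran from 6.59 to 6.86 with a median of 6.76 in caerulein. Its NaCl values were 7.29, 7.05, 6.86, 7.16 and 6.95, so the groups met at their edges without overlap (difference -0.33, SE 0.09, limma adjusted p = 0.00809). With caerulein replicates 4 to 6 alone, Rab3d (limma adjusted p = 0.12) and Sytl1 (limma adjusted p = 0.102) did not pass. Cplx2, a complexin that binds assembled SNARE proteins, had a difference of -0.28 that missed the threshold (limma adjusted p = 0.0635). It passed with replicates 4 to 6 alone (-0.50, limma adjusted p = 0.00173) and with equal 75th percentiles (-0.34, limma adjusted p = 0.0276).

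As deposited, the SNARE genes among the 30 and their partner Stxbp2 were higher or did not pass. Of SNARE genes outside the 30, Vamp7, Vamp4, Stx1a and Snap25 were lower by the test, and Stx6, Stx7, Stx12 and Vamp3 higher. With equal means of the reference gene list Stx2, Stx4a, Snap23, Stxbp2 and Vamp8 turned negative. Stx3, a syntaxin found on zymogen granules, ran from 6.47 to 6.97 with a median of 6.85 in caerulein, against 5.99, 6.03, 6.17, 5.79 and 5.91 in NaCl. No arrays overlapped, and Stx3 was 1.77-fold higher (difference 0.83, SE 0.10, limma adjusted p = 3.1e-05). It stayed positive at 0.16 with equal means of the reference gene list but no longer passed there (limma adjusted p = 0.254). Stx4a, a syntaxin of the basolateral plasma membrane, ran from 6.13 to 6.40 with a median of 6.29 in caerulein, against 6.10, 5.83, 5.92, 5.56 and 5.75 in NaCl. Its groups did not overlap either, and the difference was 0.44 (SE 0.09, limma adjusted p = 0.00246) as deposited but -0.23 with equal means of the reference gene list. Stx2, a syntaxin of the apical plasma membrane, ran from 5.72 to 6.10 with a median of 5.97 in caerulein and was 5.77, 5.78, 5.95, 5.46 and 5.87 in NaCl. Its groups overlapped and its difference of 0.15 (95% interval -0.06 to 0.37, limma adjusted p = 0.234) did not pass as deposited. With cyclic loess Stx2 was higher (0.30, limma adjusted p = 0.03), whereas with equal means of the reference gene list it was lower.

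Stx3 differed from its relatives within the arrays. Its log ratio over Stx2 averaged 0.88 ± 0.21 in caerulein (SD, n = 6) and 0.21 ± 0.10 in NaCl (SD, n = 5), a difference of 0.67 (exact permutation p = 0.00433, adjusted p = 0.0101). Over Stx4a the difference was 0.39 (exact permutation p = 0.026, adjusted p = 0.0424), and this call was lost with repeated quantile normalisation, with cyclic loess and when any of 10 of the 11 arrays was left out. Snap23, the SNARE that pairs with syntaxins at the plasma membrane, averaged 7.02 ± 0.10 in caerulein and 6.65 ± 0.11 in NaCl (SD, n = 6 and 5, difference 0.38, limma adjusted p = 0.00106). Stxbp2, which binds syntaxin, averaged 8.19 ± 0.10 in caerulein and 7.85 ± 0.10 in NaCl (SD, n = 6 and 5, difference 0.34, limma adjusted p = 0.00204). Vamp8, the granule SNARE needed for regulated release in mouse acinar cells, averaged 8.40 ± 0.08 in caerulein and 8.14 ± 0.12 in NaCl (SD, n = 6 and 5, difference 0.26, limma adjusted p = 0.00911). For all 3 genes the groups did not overlap as deposited, but the signs depended on the scaling. With equal means of the reference gene list the differences became -0.29 for Snap23, -0.33 for Stxbp2 and -0.41 for Vamp8, and after quantile normalisation was repeated Vamp8 was at -0.06 and Stxbp2 at 0.03, neither passing. After cyclic loess Vamp8 (0.08) and Stxbp2 (0.17) did not pass either.

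**Figure D2:**
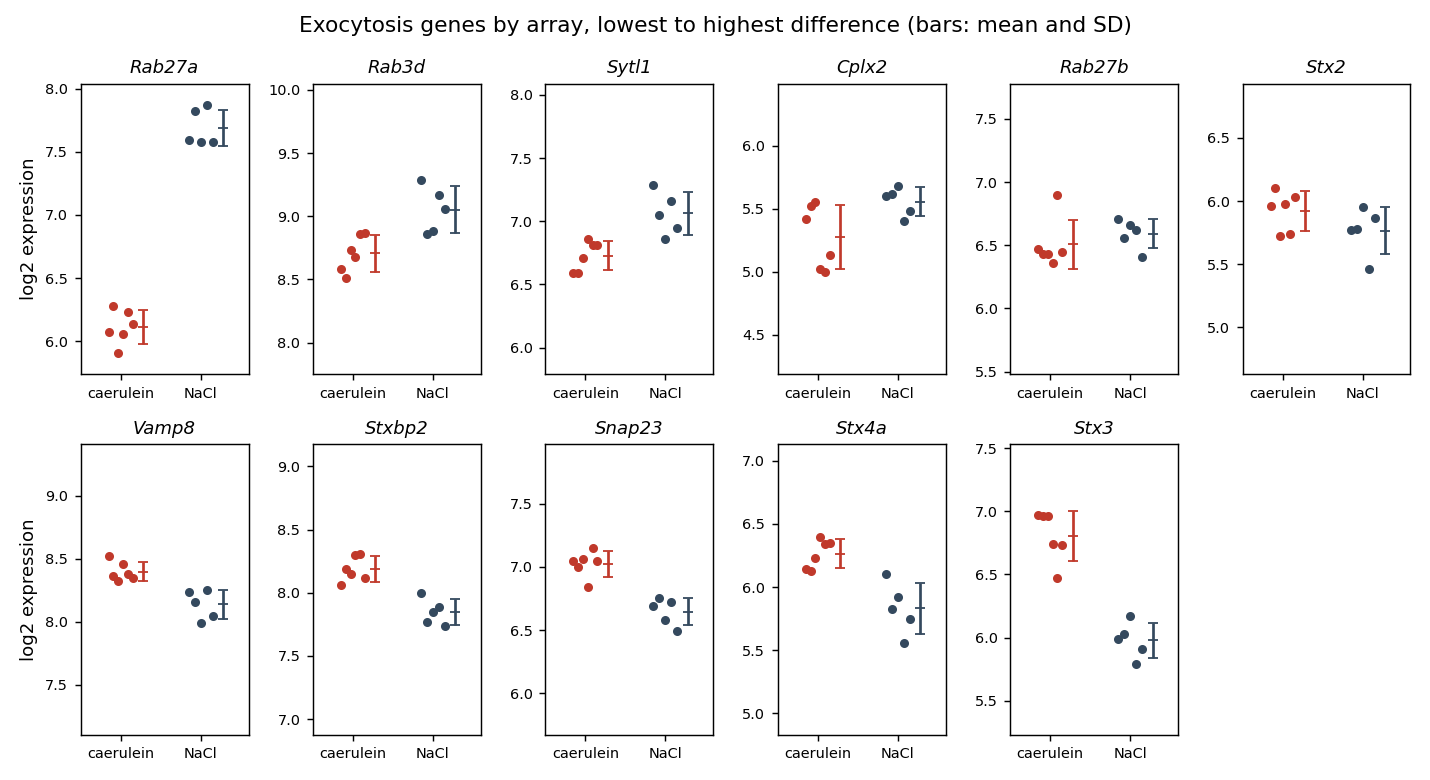
Log2 expression (vertical axis, the same span in every panel) of the 11 measured exocytosis genes on the 6 caerulein arrays (red, left) and the 5 NaCl arrays (dark blue, right), with the mean and SD of each group as a bar. The panels run from the lowest difference, Rab27a, to the highest, Stx3.

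Leukocytes also use Vamp8, Snap23, Stxbp2 and Rab27a in their own granule release, so leukocyte markers are given beside these genes. Of 11 measured leukocyte markers 6 were higher and 2 lower, against 20.3% and 34.3% of all named genes. Their summed linear level ran from 851 to 1780 in caerulein and from 514 to 589 in NaCl. Cd14 and the lysozyme gene Lyz2 were 4.94-fold and 4.02-fold higher, while the lymphocyte genes Cd79b and Cd3e were lower by the test (differences -0.34 and -0.23). Log2 values of this kind do not reach 0, so no marker can be called absent. The part of leukocytes in the exocytosis values was not tested.

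Among 51 measured exocytosis genes outside the 30, 18 were lower and 17 higher, against the same background of 34.3% and 20.3%. Their median difference was -0.14, close to that of all genes. The largest rises were those of Stxbp3, which binds the syntaxin of the basolateral membrane (3.01-fold higher, limma adjusted p = 6.73e-07), and Myo5a, a myosin that carries vesicles along actin (2.57-fold higher, limma adjusted p = 6.77e-07). Rab GTPases in this list went both ways, with Rab11a, Rab6a and Rab5a higher (2.54-fold, 2.49-fold and 2.13-fold). Rab3a, Rab3b, Rab3c, Rab26 and Rab37 were lower by the test, at most 1.53-fold. Of these, Rab3a, Rab3b and Rab3c were dim (means over 11 arrays of 4.99, 4.06 and 4.18), and the Rab3b and Rab3c groups overlapped. The largest falls were those of Sytl5, another effector of Rab27 proteins (1.87-fold lower, limma adjusted p = 2.85e-06), and Vamp7, a SNARE of late endosomes and lysosomes (1.54-fold lower, limma adjusted p = 0.0022). Sytl5 was dim as well, with a mean of 5.06.

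Genes of the granule group were lower in 6 of 6 cases, with differences from -1.29 to -0.19 and a median of -0.30. Every caerulein array lay below every NaCl array for all 6. Among all named genes 34.3% were lower, and 20.6% had every caerulein array below. Dmbt1, Gp2 and Zg16 had means over 11 arrays between 13 and 14. At that level 53.6% of probe sets, members included, passed the threshold, and in 57.1% the groups did not overlap in either direction. The largest fall in the group was that of Tmed6, of a family that sorts cargo between endoplasmic reticulum and Golgi. Its place in the granule was not tested, and the next largest fall was that of Zg16. Tmed6 ran from 8.91 to 9.44 with a median of 9.27 in caerulein and was 10.60, 10.46, 10.43, 10.51 and 10.47 in NaCl. All caerulein arrays were far below the NaCl arrays, a 2.45-fold fall (difference -1.29, SE 0.10, limma adjusted p = 2.94e-07). Zg16, a lectin of the granule matrix, ran from 13.01 to 13.24 with a median of 13.08 in caerulein, against 13.78, 13.79, 13.75, 13.80 and 13.76 in NaCl. The NaCl arrays were tightly grouped above them, and Zg16 was 1.61-fold lower (difference -0.68, SE 0.06, limma adjusted p = 1.02e-06).

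The other 4 granule genes had smaller falls, between 1.14-fold and 1.24-fold. Sycn encodes syncollin, a protein of the inner granule membrane, and differed by -0.31 (SE 0.10, limma adjusted p = 0.0179). Cuzd1, a granule membrane protein, differed by -0.30, the mucin-like Dmbt1 by -0.28, and Gp2, the main glycoprotein of the granule membrane, by -0.19 (limma adjusted p = 0.00458, 0.00199 and 0.00777). Gp2 lost its call after cyclic loess (limma adjusted p = 0.0522) and Sycn after a second quantile normalisation (limma adjusted p = 0.0883). Of 6 acinar identity markers 4 were lower and 1 higher, against 34.3% and 20.3% of all named genes. Their summed linear level ran from 1180 to 1310 in caerulein and from 3910 to 5290 in NaCl, led by Cckar, the cholecystokinin receptor (difference -4.05, limma adjusted p = 5.22e-11). The part of acinar cell number in the granule values was not tested.

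The caerulein arrays were not uniform for these genes. In 7 of the 30 genes replicates 1 to 3 all lay above replicates 4 to 6, and in 4 they all lay below, against 17.7% of all named genes in either direction. Sycn was 14.18, 14.15 and 14.06 in replicates 1 to 3 and 13.77, 13.69 and 13.82 in replicates 4 to 6. Cuzd1 had the opposite order, at 12.50, 12.46 and 12.55 against 12.71, 12.71 and 12.75. The labels give the replicate numbers no meaning, and the split was not tested. With replicates 1 to 3 alone against NaCl, 12 of the 30 genes were lower and 3 higher, against 17.5% and 14.1% of all probe sets. Sycn did not pass there (difference -0.13, limma adjusted p = 0.216), nor did Gp2, Vamp8 or Stx4a (limma adjusted p = 0.0698, 0.0618 and 0.0527). With replicates 4 to 6 alone, 12 were lower and 5 higher, against 20.4% and 15% of all probe sets. Cuzd1 did not pass there (difference -0.19, limma adjusted p = 0.0676). Both fits used fewer caerulein arrays than the main fit, so a lost call may reflect less power.

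**Figure D3:**
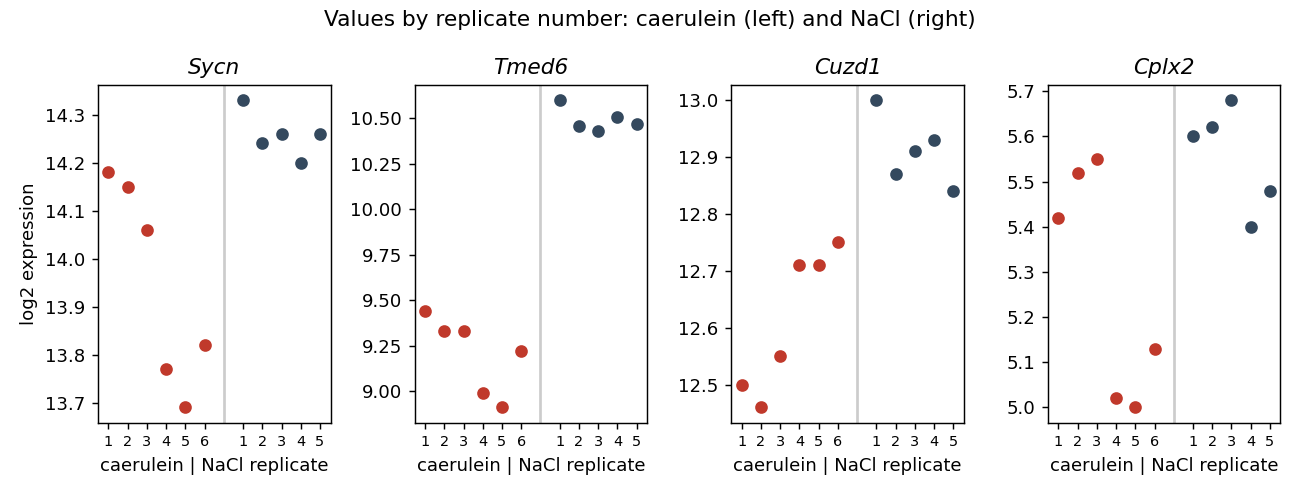
Log2 expression (vertical axes, each with its own span) of Sycn, Tmed6, Cuzd1 and Cplx2 on each array, by replicate number, with caerulein in red at the left and NaCl in dark blue at the right. Caerulein replicates 4 to 6 lie below replicates 1 to 3 for Sycn, Tmed6 and Cplx2 and above them for Cuzd1.

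Genes for lipid digestion were lower for 3 of 5 members, with a median difference of -0.27, against 34.3% lower among all named genes. No caerulein array reached a NaCl array for any of the 5, against 20.6% of all named genes. Such separation was common at their level. The groups did not overlap, in either direction, in 57.1% of probe sets with means of 13 to 14 and in 42.9% of those at 14 or more. For Cel the closest arrays were at 14.22 and 14.23. Clps encodes colipase, the cofactor that anchors pancreatic lipase to fat droplets in the presence of bile salts. It ran from 13.55 to 13.75 with a median of 13.67 in caerulein and was 14.31, 14.24, 14.31, 14.28 and 14.26 in NaCl. The gap between the groups exceeded the range of either, and Clps was 1.54-fold lower (difference -0.62, SE 0.06, limma adjusted p = 2.38e-06). Pla2g1b, the secreted phospholipase, ran from 13.31 to 13.53 with a median of 13.42 in caerulein, against 13.72, 13.73, 13.73, 13.71 and 13.68 in NaCl (difference -0.29, SE 0.06, limma adjusted p = 0.0017). Pnliprp2, a lipase-related enzyme that also cleaves galactolipids, was lower by a like amount (difference -0.27, limma adjusted p = 0.00169). Pnliprp1, a relative with little known lipase activity (difference -0.10, 95% interval -0.21 to 0.01), and Cel, the bile salt-dependent lipase (difference -0.07, 95% interval -0.18 to 0.04), did not pass.

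Of the enzymes outside lipid digestion, Rnase1 and Amy1 were lower. Rnase1, the secreted ribonuclease, ran from 13.46 to 13.76 with a median of 13.54 in caerulein and was 14.32, 14.31, 14.31, 14.26 and 14.28 in NaCl. It was 1.64-fold lower (difference -0.71, SE 0.07, limma adjusted p = 3.67e-06), while Dnase1, which cleaves DNA, lay between 4.36 and 4.60 in caerulein and between 4.33 and 4.64 in NaCl and did not pass (95% interval -0.19 to 0.13). Amy1, the amylase gene used chiefly by salivary gland and liver in mouse, ran from 9.89 to 10.23 with a median of 10.14 in caerulein, against 10.70, 10.77, 10.84, 11 and 10.73 in NaCl. It was 1.62-fold lower with no overlap (difference -0.70, SE 0.08, limma adjusted p = 1.98e-05). Amylase genes have near-identical copies that these probes may not separate.

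None of the 5 peptidases passed the threshold (0 of 5 by limma), and their differences lay between -0.12 and -0.04. Cpa1 and Cpb1 encode carboxypeptidases that trim protein ends, and Cela1, Cela2a and Cela3b encode elastases. Cpb1 ran from 14.16 to 14.28 with a median of 14.27 in caerulein, against 14.35, 14.39, 14.39, 14.36 and 14.37 in NaCl (95% interval -0.23 to -0.01, limma adjusted p = 0.0739). Cela2a ran from 14.25 to 14.33 with a median of 14.32 in caerulein, against 14.43, 14.46, 14.42, 14.42 and 14.44 in NaCl (95% interval -0.23 to -0.02, limma adjusted p = 0.0605). In both genes every caerulein array was below every NaCl array although the adjusted p missed the threshold, and the same held for Cela3b. The groups did not overlap in 42.9% of probe sets at that level, members included. Cpa1 ran from 14.54 to 14.64 with a median of 14.60 in caerulein and was 14.62, 14.69, 14.63, 14.62 and 14.63 in NaCl, with overlap. Cela1 ran from 14.23 to 14.32 with a median of 14.26 in caerulein and was 14.35, 14.35, 14.32, 14.30 and 14.32 in NaCl, also with overlap.

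Within the arrays, the log ratio of Cpa1 over Cpb1 averaged 0.35 ± 0.03 in caerulein (SD, n = 6) and 0.27 ± 0.02 in NaCl (SD, n = 5), a difference of 0.08 (exact permutation p = 0.00433, adjusted p = 0.0101). It was 0.03 after a second quantile normalisation, where it did not pass (exact permutation adjusted p = 0.242). The ratio of Cela1 over Cela2a differed by 0.06 (exact permutation p = 0.0303, adjusted p = 0.0424), a call lost when any of 9 of the 11 arrays was left out and with repeated quantile normalisation (0.02, exact permutation adjusted p = 0.343). All of these genes lie near the top of the scale, so unequal compression of the probe sets in a pair cannot be told apart from unequal change of their RNA. The ratio of Cela1 over Cela3b differed by 0.03 and did not pass (exact permutation p = 0.307, adjusted p = 0.307).

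Most enzymes lay close to the top of the scale, where most probe sets differed little. The highest value on an array was between 14.96 and 15.05, and the 5 peptidases, Pnliprp1 and Cel stayed within 0.86 of their own array's maximum on all 11 arrays. Levels are taken here from the NaCl arrays, so that a fall in caerulein does not move a gene to a lower level. With a NaCl mean of 14 or more there were 32 probe sets, with a median absolute difference of 0.0704, and 12.5% passed the threshold. These 32 held 10 members, and 3 of the 4 that passed were members, so members were in part set against themselves. Of the 10 members at that level 3 passed, and their differences were not all small, at -0.71 for Rnase1, -0.62 for Clps and -0.31 for Sycn. With a NaCl mean between 13 and 14 there were 27 probe sets, members included, with a median absolute difference of 0.249 and 51.9% past the threshold. All 5 of 5 members passed. Between 8 and 11 there were 2325 probe sets, with a median of 0.438 and 68.2% past the threshold. Over all probe sets of the array 27.8% were lower and 16.4% higher, and every caerulein array lay below every NaCl array for 15.6% and above for 12.7%. Values near the maximum can be compressed, so a small difference there does not show an equally small difference in RNA.

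**Figure D4:**
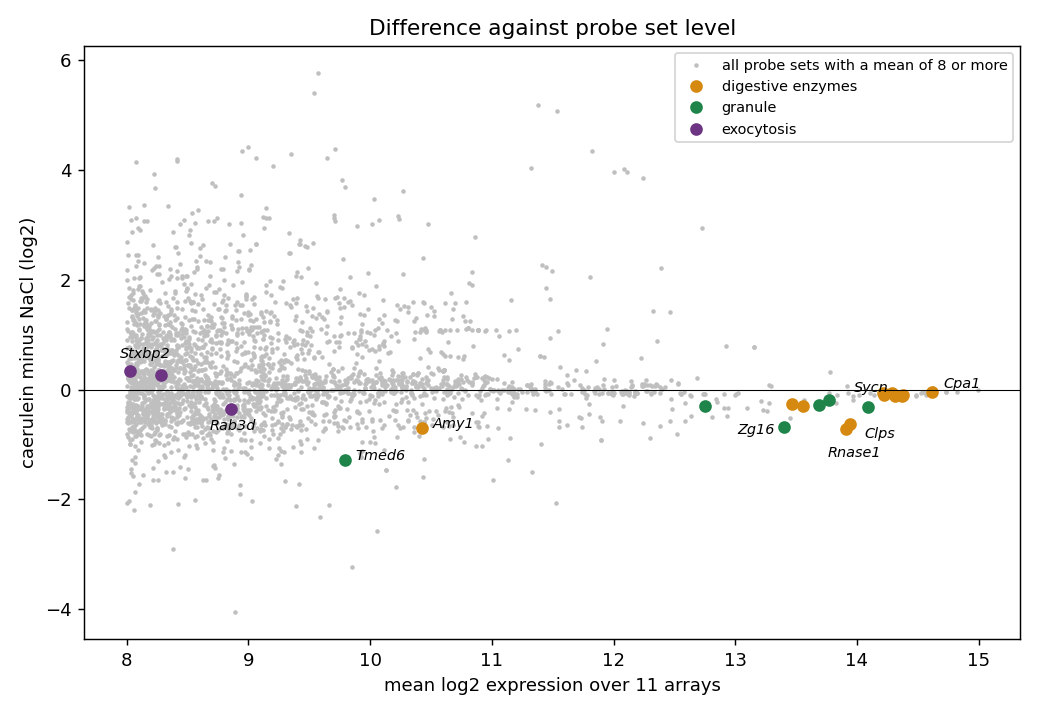
Caerulein minus NaCl difference (vertical axis, log2) against the mean log2 level over 11 arrays (horizontal axis) for every probe set with a mean of 8 or more (grey), with members coloured as digestive enzymes, granule or exocytosis genes. The spread of the grey points narrows towards the right, and the enzymes around Cpa1 lie within it close to 0.

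The spread between replicates narrowed near the maximum as well. The median within-group SD was 0.0328 for the 8 members with a mean over 11 arrays of 14 or more, against 0.139 for all probe sets between 8 and 11, while the test assumed a prior SD of 0.15 at every level. Every caerulein array lay below every NaCl array for 6 of these 8 members and for 12 of the 28 probe sets of that level, members included. With a prior that was both trended with the level and robust, 11 of 13 enzymes were lower, against 5 of 13 with the common prior. Of all probe sets 27.4% were lower with that prior and 27.8% with the common prior. The share at 14 or more was not counted with that prior, and the trend and the robust estimation were not tried apart. The enzymes added with that prior were Pnliprp1, Cel, Cpb1, Cela1, Cela2a and Cela3b, with unchanged differences of -0.12 to -0.07. With repeated quantile normalisation the differences of Pnliprp1 and Cel were slightly above 0, and with cyclic loess those of Cel and Cela1 were, so the direction of these 3 enzymes depended on the scaling.

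**Figure D5:**
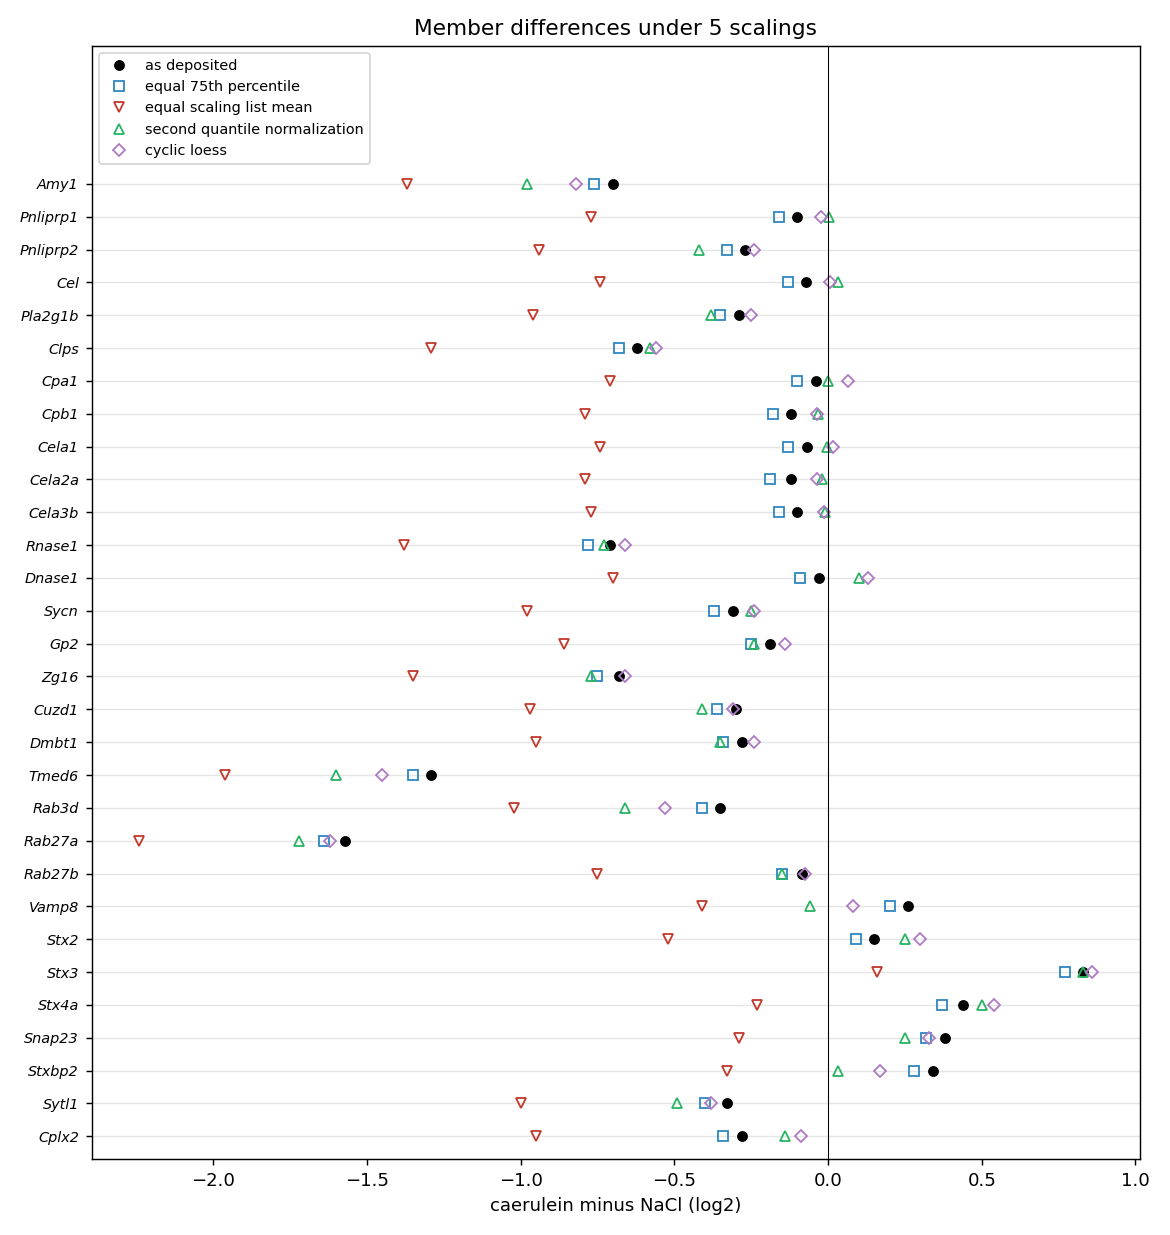
Caerulein minus NaCl difference (horizontal axis, log2) of each of the 30 genes as deposited (filled black) and under 4 other scalings (open symbols; the scaling list is the list of commonly used reference genes). Rab27a, Tmed6, Rnase1, Amy1, Zg16 and Clps lie left of 0 and Stx3 right of 0 under all 5, whereas Vamp8 and Snap23 lie on either side.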

How the data were processed

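The values deposited by the authors are on a log2 scale, with 1 value for each probe set on each array. RMA, oligo and limma are named per the submitters' processing notes, with no version or settings. Background knowledge of RMA is that it corrects background, normalises probes by quantiles and summarises them, which can compress both ends of the scale. No detection calls, batches or scan dates were analysed here. Of 35556 probe sets, 21789 carried 1 symbol in the platform annotation, 1621 several and 12146 were unnamed. Each gene was its single-symbol probe set with the highest mean over 11 arrays. The caerulein (6) and NaCl (5) arrays were tested, two-sided and without covariates, by limma 3.58.1 (R 4.3.3), with Benjamini-Hochberg adjustment over all probe sets. The fit was tested on simulated data, where it found all of the largest planted changes but missed most of the smallest. A gene that did not pass may therefore still differ. Log ratios of related genes used exact permutation tests in scipy 1.17.1, adjusted over 7 of 10 listed pairs, since 3 held an unmeasured gene. Summed linear levels add the values raised back from log2.

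The genes, lists and pairs were chosen with earlier results of these data known. Arrays are described one by one for the 2 genes of each group with the largest change past the threshold, those against their group's majority, and pairs that passed. Sycn, Cuzd1, the other Rab genes and the levels by NaCl mean were added after the values were seen. The alternatives were a trended robust prior, array weights, 4 rescalings, a filter on the dimmer 50 percent of probe sets, a block for the replicate number, the mean of a gene's probe sets and each array left out. Caerulein replicates 1 to 3 or 4 to 6 alone were added after the data had been seen.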

Additional observations from a re-analysis of the deposited data

Results flagged for a closer look

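In 4 of 60 groups of arrays, 2 for each of the 30 genes, an array lay far from its group by Dixon's test, which chance gives in about 1 of 20 groups. Rab27b was 6.90 in caerulein replicate 5, where the next highest caerulein array was at 6.47. Cpb1 was 14.16 in caerulein replicate 4, with the next lowest at 14.25. NaCl replicate 2 held the highest value of Cel, 14.29 with the next at 14.24, and of Cpa1, 14.69 with the next at 14.63. No cause was tested.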

How the results depend on the processing

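The counts lower and higher as deposited were 14 and 5 of the 30 genes, 5 and 0 of the 13 enzymes, 6 and 0 of the 6 granule genes, and 3 and 5 of the 11 exocytosis genes. With an equal reference gene list mean, 29 genes were lower and 0 higher, with 13 enzymes lower and 10 exocytosis genes lower and 0 higher. Of all probe sets 84.7% were lower under that scaling. There Vamp8 (-0.41), Stx2 (-0.52), Stx4a (-0.23), Snap23 (-0.29) and Stxbp2 (-0.33) turned negative, as the construction of a shift of -0.67 implies. With equal 75th percentiles 11 enzymes were lower, and with the trended robust prior 11, against 38.3% and 27.4% of all probe sets. After a second quantile normalisation 3 genes were higher, all 3 in exocytosis, and Pnliprp1 (0.003), Cel (0.034), Cpa1 (0.0013), Dnase1 (0.1) and Vamp8 (-0.058) changed sign. After cyclic loess Cel (0.0052), Cpa1 (0.066), Cela1 (0.015) and Dnase1 (0.13) changed sign. With caerulein replicates 1 to 3 alone 3 genes were higher, all 3 in exocytosis, against 14.1% of all probe sets, and Dnase1 was at 0.035. The cause of these changes was not tested, beyond the shift itself. Array weights and the mean of a gene's probe sets changed no call of the 30 genes. With the dimmer 50 percent left out Dnase1 was not tested and Cplx2 passed (limma adjusted p = 0.0413). Leaving out any single array gave 14 to 15 lower and 5 higher genes, against 24.3% to 26.3% and 15.4% to 16.2% of all probe sets. Only Dnase1 changed sign there, with differences of -0.063 to 0.013, and Cplx2 passed without caerulein replicate 2 or 3. Cplx2 also passed with equal 75th percentiles and with caerulein replicates 4 to 6 alone, and Stx2 passed as higher after cyclic loess.

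Among log ratios, Cpa1 over Cpb1 (0.03), Cela1 over Cela2a (0.02) and Stx3 over Stx4a (0.33) lost their call after a second quantile normalisation, and Stx3 over Stx4a (0.32) also after cyclic loess, whereas Rab3d over Rab27b gained one in both (-0.51 and -0.45). With single arrays left out, Cela1 over Cela2a ranged from 0.05 to 0.07, Stx3 over Stx4a from 0.33 to 0.48 and Rab3d over Rab27b from -0.32 to -0.21. The tests with an array left out allow fewer arrangements and so larger smallest p-values.

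With the replicate number as a block, 13 genes were lower and 5 higher, against 22.2% and 15.3% of all probe sets. Gp2 was the gene that lost its call (difference -0.19, limma adjusted p = 0.0542). The numbers do not pair the arrays: deviations of same-numbered arrays correlated at -0.0517 to 0.0597, and 2 of 5 NaCl arrays correlated best with the caerulein array of their own number. Signal over background is unknown, which limits the dim members such as Dnase1 and Cplx2, and precision is bounded by the 11 arrays.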

Other observations

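Other secreted products of acinar cells, listed apart from the 30 genes, were lower or did not pass. Of 12 measured, 5 were lower and 0 higher (limma, adjusted p under 0.05), with a median difference of -0.17, near the 34.3% lower and the median of -0.13 of all named genes. The 5 lower genes, Ctrc, Tff2, Try4, Cela3a and Spink1, had mean levels of 12.94 or less, and 6 of the 7 others had means of 13.83 or more. The chymotrypsin Ctrc was 2.62-fold lower and Tff2, a trefoil peptide, 1.76-fold lower.

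The marker counts below stand beside 34.3% lower and 20.3% higher among all named genes. Of 5 measured duct markers 3 were higher and 1 lower, with Krt19 at 20.9-fold and Krt7 at 3.85-fold higher and Muc1 at 2.21-fold lower. Of 7 endocrine markers 2 were lower, Pcsk1 (1.33-fold) and Ppy (1.24-fold), and 0 higher, both below the shares of all named genes. Their summed linear level overlapped, from 2580 to 5810 in caerulein and from 1950 to 6030 in NaCl. Of 7 stromal and endothelial markers 3 were higher and 0 lower, with Col3a1 at 1.78-fold and the endothelial Pecam1 and Cdh5 at 1.31-fold and 1.3-fold higher. The other stromal genes Col1a1, Col1a2 and Dcn did not pass (differences 0.07, -0.05 and -0.36), nor did the endothelial Kdr (0.23). Of 3 adipocyte markers 2 were lower, Plin1 (1.39-fold) and Lep (1.16-fold), the latter dim with a mean of 3.79. The part of these cell types in the values of the 30 genes was not tested.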
